A study of Nicotiana plumbaginifolia and Nicotiana benthamiana and Nicotiana rustica with 81 samples.

Results

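Aquaporins and proton pumps are the membrane proteins through which plant cells move water and charge their membranes. They were taken as every transcript whose description in the deposited table contains aquaporin, plasma membrane ATPase, V-type proton ATPase or pyrophosphate-energized. The rule found 144 of 38230 transcripts, 56 aquaporins and 88 proton pumps. The aquaporins comprised 12 PIP1, 17 PIP2, 12 TIP, 7 NIP and 6 SIP transcripts and 2 without a subfamily. The pumps comprised 10 plasma membrane ATPases, 34 V1 and 37 V0 subunits of the V-type proton ATPase, and 7 pyrophosphate-energized pumps. RNA had been sequenced from hand-dissected floral nectaries of 6 Nicotiana species (N. benthamiana, N. rustica, N. glauca, N. plumbaginifolia, N. bonariensis and N. clevelandii). The nectaries were immature (stage 6), immature before secretion (stage 9), at anthesis (stage 12), or past secretion, a stage the protocol places after fertilization. Together with leaf, ovary and sepal of N. plumbaginifolia, these nectaries make up 27 groups of 3 libraries, 81 in all. Plants were grown from germplasm seed, with no treatment or genetic change named. N. bonariensis and N. clevelandii carry identical values in every row and were used once, as a joint profile, which leaves 5 profiles and 20 nectary groups.

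Plasma membrane intrinsic proteins (PIPs) are the water channels of the cell surface, and PIP1 proteins commonly reach the membrane together with PIP2 partners. Tonoplast intrinsic proteins (TIPs) do the same for the vacuole, NIPs carry small solutes such as boric acid, and the small SIPs lie in the endoplasmic reticulum in Arabidopsis. The plasma membrane ATPase pumps protons out of the cell and so powers the proton-coupled transport of sugars and other solutes across the surface, the setting in which these pumps are discussed for nectar secretion. The V-type ATPase and the pyrophosphate-energized pump acidify the vacuole and other inner compartments. In the V-type ATPase, the V1 sector hydrolyses ATP and the V0 sector, built on a ring of c subunits, lets protons through the membrane.

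Each value is the authors' mean of normalized counts over the 3 libraries of a group, with the authors' SD. The labels do not say whether the libraries of a group came from separate plants, so this spread may be technical. The depth of each library is unknown, and in whole nectaries fewer cells of a type and less RNA per cell cannot be told apart. Log2 changes are on the scale of mean + 1. The summed mean of 17 nectary marker transcripts (nectarins, the regulators CRABS CLAW and MYB305, and the sugar exporter SWEET9) at stage 12 was 92343 in N. benthamiana, 64513 in N. glauca, 57713 in N. rustica, 26623 in the joint profile and 19843 in N. plumbaginifolia, against 326 in leaf, 2720 in ovary and 2973 in sepal. In the post secretory nectaries of the same profiles, in that order, it was 904, 1042, 1317, 1165 and 6103. Chlorophyll a-b binding transcripts, a mark of green tissue, moved the other way, from 1125 to 34731 in N. glauca for example.

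Many members were listed at 0 in a whole profile. Between 28 (joint profile) and 54 (N. plumbaginifolia) of the 144 were at 0 in all 4 nectary stages, and 45 members were at 0 throughout in no profile. The shares over all transcripts are not given, so these counts do not set the members apart. Copies with the same description took each other's place. V-type subunit a2-like XM_016618113.1 stood at 1779 (SD 127) in the stage 12 nectary of N. benthamiana, where its copy XM_016622844.1 was listed at 0. In N. rustica the former was listed at 0 and the latter stood at 2361 (SD 59). The level of a single transcript in 1 profile is therefore uncertain. Sums were made over the members with the same Arabidopsis match (42 such loci), over families and over pump subunits. The copies above have different matches (AT2G21410 and AT4G39080), so sums by match do not join them. The sum of subunit a does, with 3506 (SD at most 247) in N. benthamiana and 3820 (SD at most 167) in N. rustica at stage 12. How reads were divided among copies was not tested. Some descriptions name N. tabacum, which is not among the species sequenced. How well the reads of each species matched the listed transcripts was not tested, nor was its part in the zeros or in differences between species. The SD of a sum is given at its upper bound, the sum of the SDs.

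**Figure D1:**
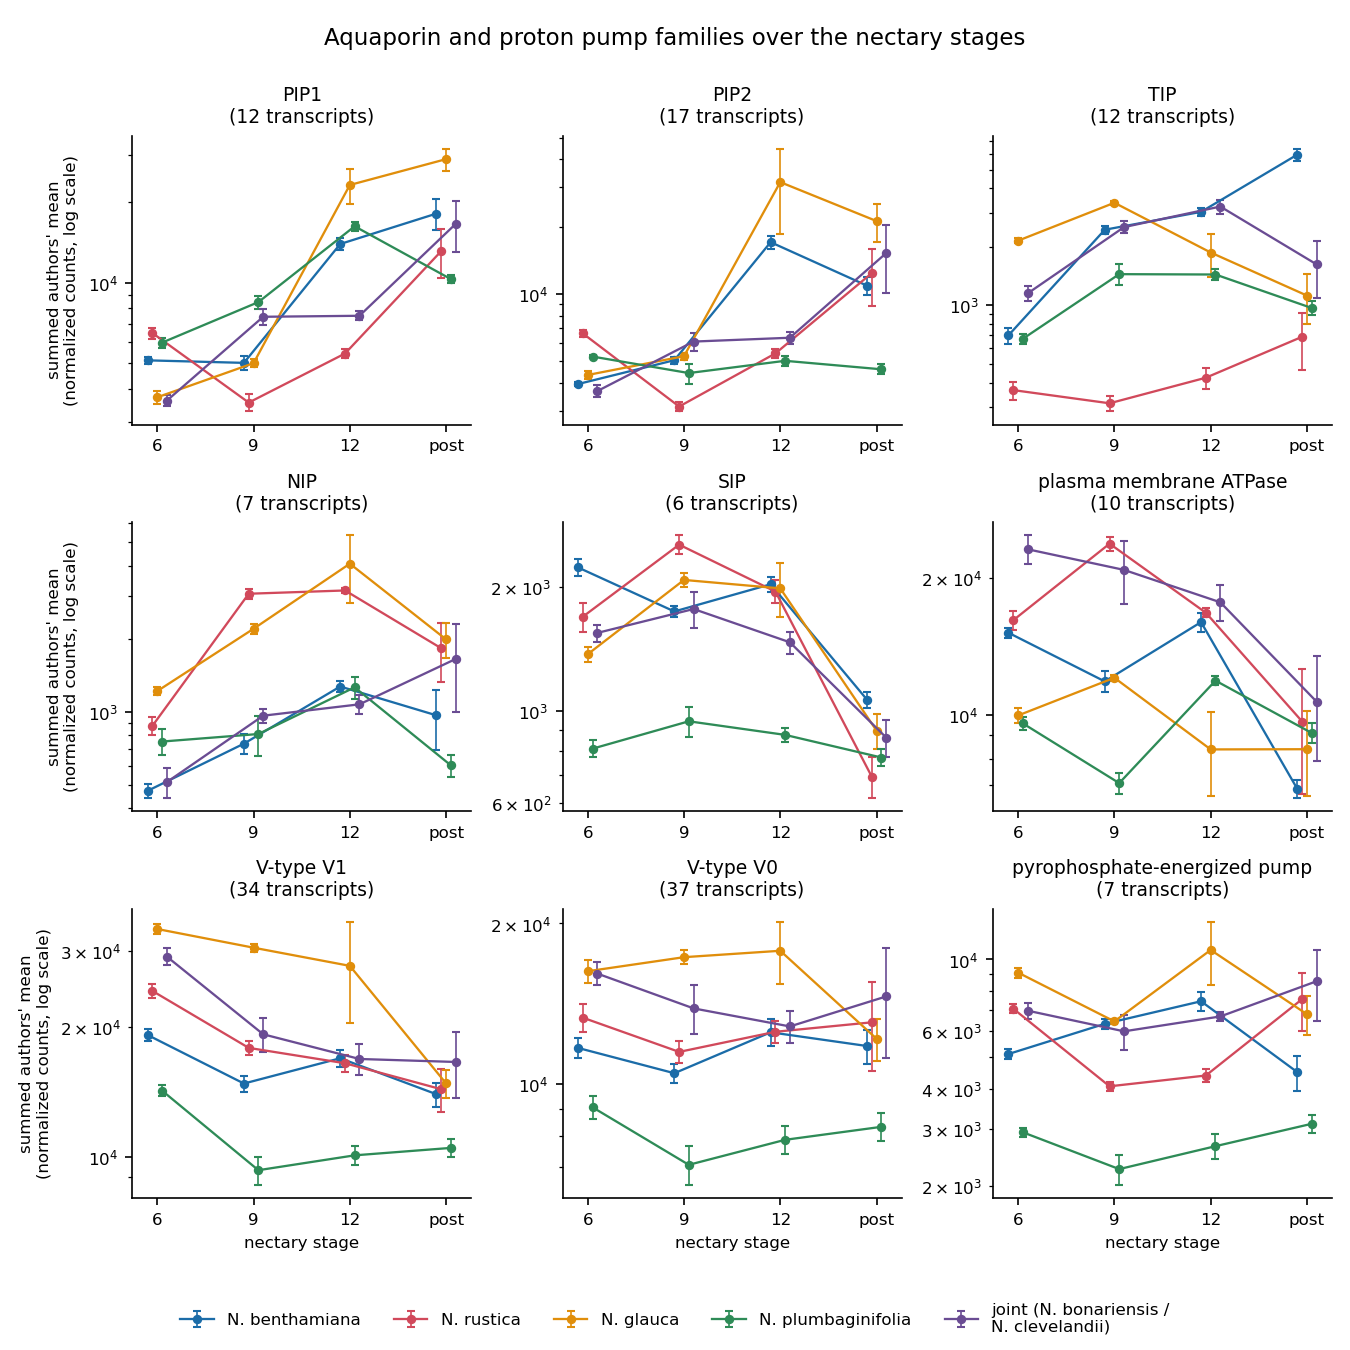
Summed authors' means of 9 families of aquaporins and proton pumps (y axis, normalized counts, log scale) at nectary stages 6, 9 and 12 and after secretion (x axis) in 5 profiles; bars are the upper bound of the SD of the sum. The PIP1 sum of N. glauca goes from 3715 to 29054, SIP sums lie between 694 and 1067 after secretion, and V1 sums are highest at stage 6 in each profile.

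PIP1 water channels of the plasma membrane reached their highest sums at stage 12 or after secretion, depending on the species. The PIP1 sum of N. glauca was 3715 at stage 6, 4988 at stage 9, 23243 (SD at most 3512) at stage 12 and 29054 (SD at most 2756) after secretion. In N. benthamiana it was 5111, 5001, 13960 and 18158 at the same stages, and in N. plumbaginifolia 5957, 8452, 16268 and 10305. N. rustica and the joint profile stayed at or below 7511 until stage 12 and stood at 13139 (SD at most 2745) and 16615 (SD at most 3599) after secretion. From stage 9 to stage 12 the PIP1 sum was higher in 5 of 5 profiles, by 0.01 to 2.22 on the log2 scale, and in 4 of 5 after rescaling by the median of ratios. PIP2 sums were highest at stage 12 in N. glauca, with 4335 at stage 6, 31622 (SD at most 13028) at stage 12 and 21172 (SD at most 4094) after secretion. The same held in N. benthamiana, with 3949, 17031 and 10887, whereas the PIP1 sums of both species were higher after secretion than at stage 12. In N. rustica and the joint profile the PIP2 sum was instead highest after secretion, as the PIP1 sum was. It went from 5415 at stage 12 to 12375 (SD at most 3537) in N. rustica and from 6363 to 15218 (SD at most 5165) in the joint profile. The PIP2 sum of N. plumbaginifolia differed little between stages, from 4422 to 5242.

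Different PIP1 transcripts made up these sums. Aquaporin PIP1 2b (BK008502.1) was the most abundant PIP1 member over the nectary means and led in the joint profile, where it stood at 2153 (SD 91), 4596 (SD 192), 4829 (SD 99) and 10457 (SD 1850) over the 4 stages. Aquaporin 1 (AJ001416.1), a tobacco PIP1 protein studied for its permeability to carbon dioxide, made up most of the post secretory sum of N. glauca, with 16066 (SD 1133) against 1582 (SD 343) at stage 12. At stage 12 the same species instead listed PIP1 4 (BK008503.1) at 12680 (SD 312) and probable aquaporin PIP1-2 (XM_016602745.1) at 7895 (SD 2706). The latter also led in N. plumbaginifolia, with 339 (SD 20), 1278 (SD 109), 9160 (SD 203) and 3796 (SD 242), and was listed at 0 in every N. benthamiana group.

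**Figure D2:**
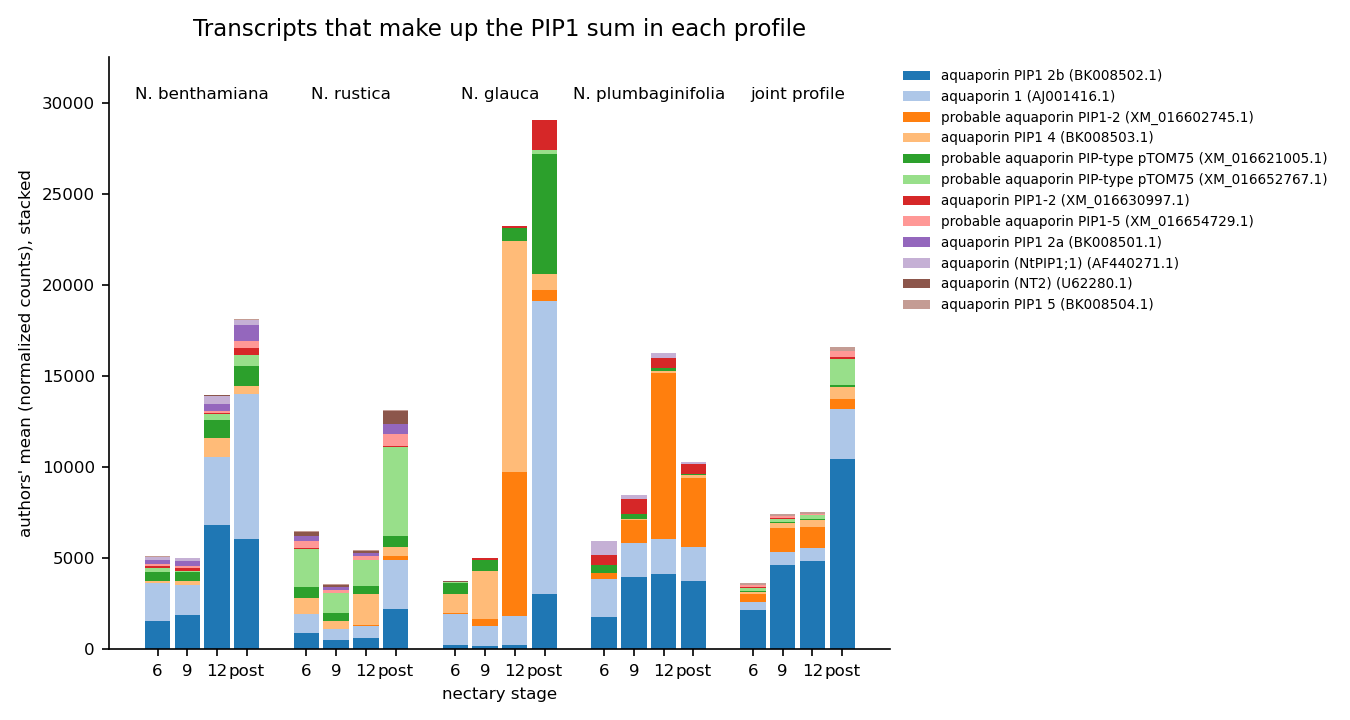
The 12 PIP1 transcripts stacked as authors' means (y axis, normalized counts) for the 4 nectary stages of each of the 5 profiles (x axis). PIP1-2 XM_016602745.1 (9160) makes up most of the stage 12 bar of N. plumbaginifolia, PIP1 4 (12680) that of N. glauca, and aquaporin 1 (16066) the post secretory bar of N. glauca.

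From stage 6 to stage 12, the comparison of immature with open flowers, the sum of the PIP2 1 and PIP2 2 transcripts (4 transcripts, match AT3G54820) rose in every profile. It went from 1693 (SD at most 15) to 13530 (SD at most 936) in N. benthamiana, from 1136 (SD at most 34) to 28744 (SD at most 12162) in N. glauca while N. rustica had 127 (SD at most 13) and 1210 (SD at most 63). In N. plumbaginifolia the values were 213 (SD at most 10) and 653 (SD at most 71), and in the joint profile 413 (SD at most 30) and 1059 (SD at most 80). No stage 6 value of this sum reached the stage 12 value of its own profile, and the mean change was 2.77 (SE 0.59, limma adjusted p = 0.012, higher in 5 of 5 profiles). PIP1-2 (match AT4G00430, the single transcript above) rose by 2.86 (SE 0.84, limma adjusted p = 0.041, higher in 4 of 5 and listed at 0 in N. benthamiana). PIP2 9 (AT2G37170, 2 transcripts) rose by 1.00 (SE 0.30, limma adjusted p = 0.044), from 359 to 1384 in N. glauca and from 356 to 1108 in the joint profile, and was listed at 0 in N. plumbaginifolia.

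Channels of the vacuole and the solute channels were also among the sums called higher at stage 12. TIP2-1 (AT3G16240, 2 transcripts), a vacuolar channel that also passes ammonia in Arabidopsis, rose by 2.72 (SE 0.67, limma adjusted p = 0.023, higher in 5 of 5). Its levels were low, from 3 to 54 at stage 6 and from 25 to 431 at stage 12. NIP5-1 (AT4G10380, 2 transcripts), a boric acid channel of the Arabidopsis root, rose by 1.39 (SE 0.38, limma adjusted p = 0.032). It went from 160 to 616 in N. benthamiana, from 455 to 2501 in N. rustica, from 393 to 818 in the joint profile and from 996 to 3933 in N. glauca, but from 310 to 223 in N. plumbaginifolia. The NIP sum as a whole was higher at stage 12 than at stage 6 in 5 of 5 profiles, by 0.74 to 1.85. Vacuolar TIP1-1 transcripts (AT2G36830, 5 transcripts) had an estimate of 1.74 (SE 0.75, limma adjusted p = 0.14), with 16 (SD at most 7) at stage 6 and 347 (SD at most 70) at stage 12 in N. plumbaginifolia but 1906 and 1152 in N. glauca.

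The proton pump of the vacuole went the other way, through its ATP-hydrolysing sector. The V1 sum was 33795 at stage 6 and 27765 at stage 12 in N. glauca, 29163 and 16896 in the joint profile, and 24285 and 16515 in N. rustica. It was 19202 and 16961 in N. benthamiana and 14270 and 10106 in N. plumbaginifolia. All 5 profiles were lower, by 0.18 to 0.79, while the V0 sum was lower in 3 and higher in 2, between -0.33 and 0.13. By subunit, 6 of 13 were lower in 5 of 5 profiles (B, D, E, F, G and H, all of V1) and 0 were higher in 5 of 5; after rescaling, those 6 were still lower in 5 of 5, and subunit c of V0 was lower in 5 of 5 as well. A subunit sum can join several loci. Counted by locus over all families, 7 of 40 members were lower in 5 of 5 at this step, against 11.2% of all loci. At stage 9 against stage 6, the sums of subunits A, B, C, G and H were lower in 5 of 5. By locus, 6 of 40 members were lower in 5 of 5 there, against 9.78% of all loci. Subunits D and F were lower in only 3 profiles at stage 9, and lower in 5 of 5 from stage 9 to stage 12. In N. glauca the V1 sum was 33795, 30590 and 27765 at stages 6, 9 and 12.

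The sums of subunits H and G passed the threshold. Subunit H (AT3G42050, 3 transcripts), which regulates the complex, fell by 0.75 on the log2 scale (SE 0.15, limma adjusted p = 0.0097, lower in 5 of 5), from 3299 to 1592 in N. glauca but only from 1683 to 1658 in N. benthamiana. Subunit G (AT3G01390, 2 transcripts), part of the stalk, fell by 0.66 (SE 0.17, limma adjusted p = 0.027, lower in 5 of 5). At the level of single transcripts, the subunit G 2-like transcript XM_016628038.1 stood at 926 (SD 40) at stage 6 and 462 (SD 34) at stage 12 in the joint profile, 553 (SD 36) and 339 (SD 24) in N. benthamiana, 448 (SD 14) and 257 (SD 27) in N. rustica, 369 (SD 12) and 176 (SD 6) in N. plumbaginifolia, and 166 (SD 4) and 93 (SD 12) in N. glauca. It was lower at stage 12 in every profile and fell by 0.88 (SE 0.12, limma adjusted p = 0.0081). Its call was lost without N. rustica (adjusted p = 0.0596) or N. glauca (adjusted p = 0.0527). In the authors' deposited table this transcript was called lower in 5 of 5 profiles. The same table called 26 of 29 measured V1 transcripts lower in the joint profile, 12 of 20 in N. rustica, 11 of 19 in N. plumbaginifolia, 7 of 19 in N. glauca and 7 of 24 in N. benthamiana, where measured means at least 50 in either stage. Over all measured transcripts, the shares called lower by the authors' deposited table were 20.7%, 22.9%, 20.5%, 20.1% and 17.0% in that order. It called 2 V1 transcripts higher, both in N. benthamiana.

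**Figure D3:**
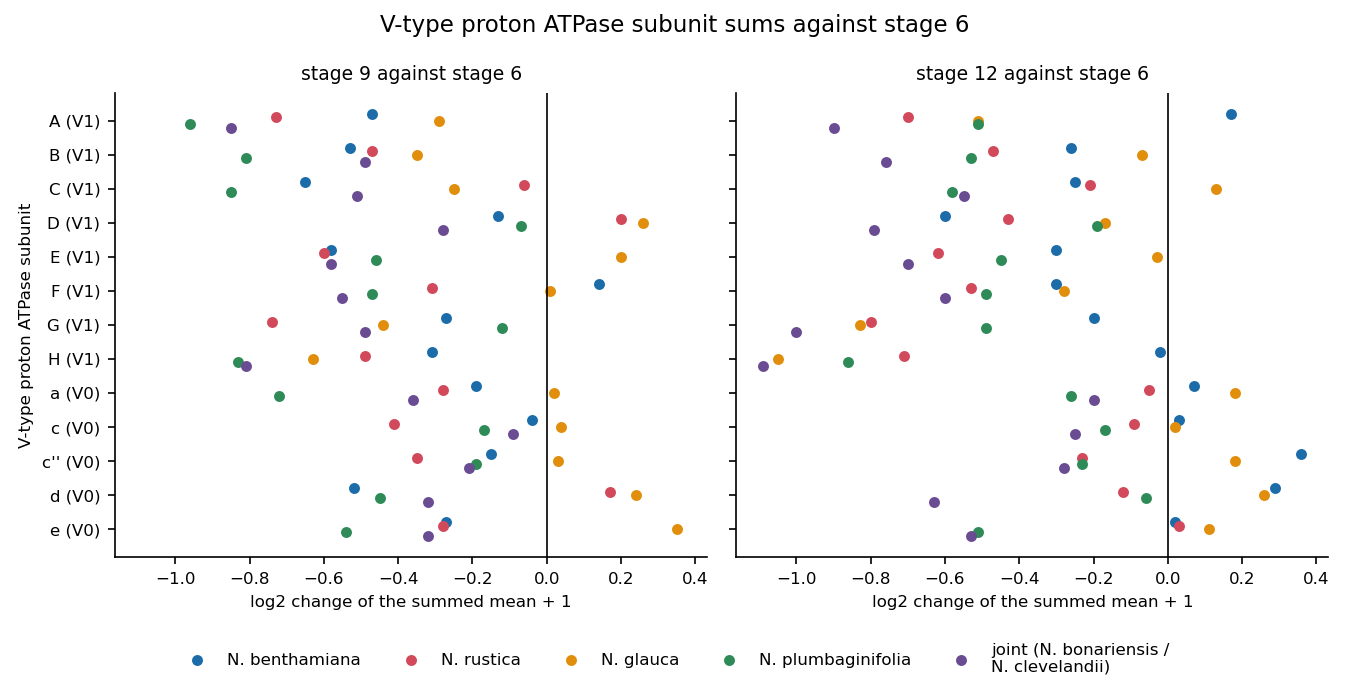
Log2 change of the summed mean + 1 (x axis) of 13 V-type proton ATPase subunits (y axis), at stage 9 (left) and stage 12 (right) against stage 6, 1 point per profile. Most V1 points lie below 0, down to -1.09 for subunit H, while V0 points at stage 12 lie on both sides, from -0.63 to 0.36.

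The other pump families had no common direction from stage 6 to stage 12. A pyrophosphate-energized vacuolar pump transcript (XM_016594476.1), of the enzyme that uses pyrophosphate in place of ATP, was lower at stage 12 in every profile and fell by 0.84 (SE 0.15, limma adjusted p = 0.026). N. rustica had 4008 (SD 49) at stage 6 and 1844 (SD 94) at stage 12, and N. plumbaginifolia 853 (SD 11) and 500 (SD 33). The call was lost without any 1 of the 5 profiles, with adjusted p between 0.0639 and 0.114. The sum of all 6 members with that match (AT1G15690) did not pass the threshold, with an estimate of -0.03 (SE 0.24, limma adjusted p = 0.96), and was higher in N. benthamiana (4349 to 6600) and N. glauca (6681 to 9355). From stage 9 to stage 12 alone, the sum of all 7 pyrophosphate-energized pumps was higher in 5 of 5 profiles, by 0.11 to 0.73, also after rescaling, after being lower in 4 of 5 from stage 6 to 9. The plasma membrane ATPase sum was between 9567 and 23149 at stage 6 and between 8385 and 17690 at stage 12, higher in 3 profiles and lower in 2. Plasma membrane ATPase 4 and its like (AT4G30190, 2 transcripts), of a pump widely expressed in N. plumbaginifolia, had an estimate of 0.73 (SE 0.28, limma adjusted p = 0.097), and was higher in 5 of 5. Its changes were 1.74 in N. benthamiana (902 to 3016) and 1.20 in N. plumbaginifolia (1263 to 2897) but 0.36 in the joint profile, 0.20 in N. rustica and 0.14 in N. glauca.

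In counts, 0 of 140 tested members were called higher and 2 lower at stage 12 against stage 6, where over all transcripts 0.478% were called higher and 0.360% lower by limma with Benjamini-Hochberg adjustment. At an unadjusted p under 0.05 there were 21 higher and 13 lower, beside 10.5% and 6.22% of all transcripts. By locus, 5 of 40 were called higher (12.5%) and 2 lower (5.0%), against 5.65% and 5.39% of all loci. The median change of the member loci was -0.04, beside 0.05 over all loci. Changes in the same direction in 5 of 5 profiles were found in 3 transcripts higher and 11 lower (4.14% and 2.96% of all transcripts), and in 4 loci higher and 7 lower (12.0% and 11.2% of all loci). The authors' deposited table called 28 members higher and 11 lower of 81 measured in N. benthamiana, 19 and 16 of 78 in N. glauca, 16 and 27 of 80 in N. rustica, 24 and 41 of 99 in the joint profile, and 15 and 23 of 74 in N. plumbaginifolia. Over all measured transcripts the authors' deposited table called 20.6%, 24.4%, 27.5%, 22.6% and 18.6% higher in that order, and the lower shares are those given above. These calls rest on few profiles, and each of the 7 was lost when 1 or more single profiles were left out. The PIP2 1 and PIP2 2 call was lost without N. glauca (lowest log2 change 2.30, highest adjusted p = 0.0601), subunit H without N. rustica or the joint profile (adjusted p up to 0.0587), and TIP2-1 without N. benthamiana, N. glauca or the joint profile (up to 0.0669). Subunit G was lost without N. rustica, N. glauca or the joint profile (up to 0.116), PIP1-2 without any profile but N. benthamiana (up to 0.201), and PIP2 9 (up to 0.196) and NIP5-1 (up to 0.143) without any but N. plumbaginifolia. Without the 6 groups in which transcripts of the ovule gene AGL11 stood at 5 times their stage 6 level or more, as in the joint profile at stage 12 (2379 against 175), 2 loci were called higher and 1 lower. Of the 7 calls, PIP2 1 and PIP2 2 (limma adjusted p = 0.0243) and subunit H (0.0469) were kept. Those of TIP2-1 (0.0864), PIP1-2 (0.111), PIP2 9 (0.15), NIP5-1 (0.0635) and subunit G (0.0921) were lost. Their estimates changed little, to 2.54, 2.97, 0.92, 1.53 and -0.66 in that order. This fit has 6 residual degrees of freedom in place of 12, so the lost calls do not show that these changes depend on the groups left out. The other locus called higher was not among the 7. The green tissue markers were higher at stage 12 than at stage 6 in each profile, with 4300 and 9334 in N. benthamiana, 2365 and 9126 in the joint profile, 4361 and 9522 in N. rustica, 3512 and 7820 in N. plumbaginifolia, and 1070 and 1125 in N. glauca. The part of these markers in the results was not tested.

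**Figure D4:**
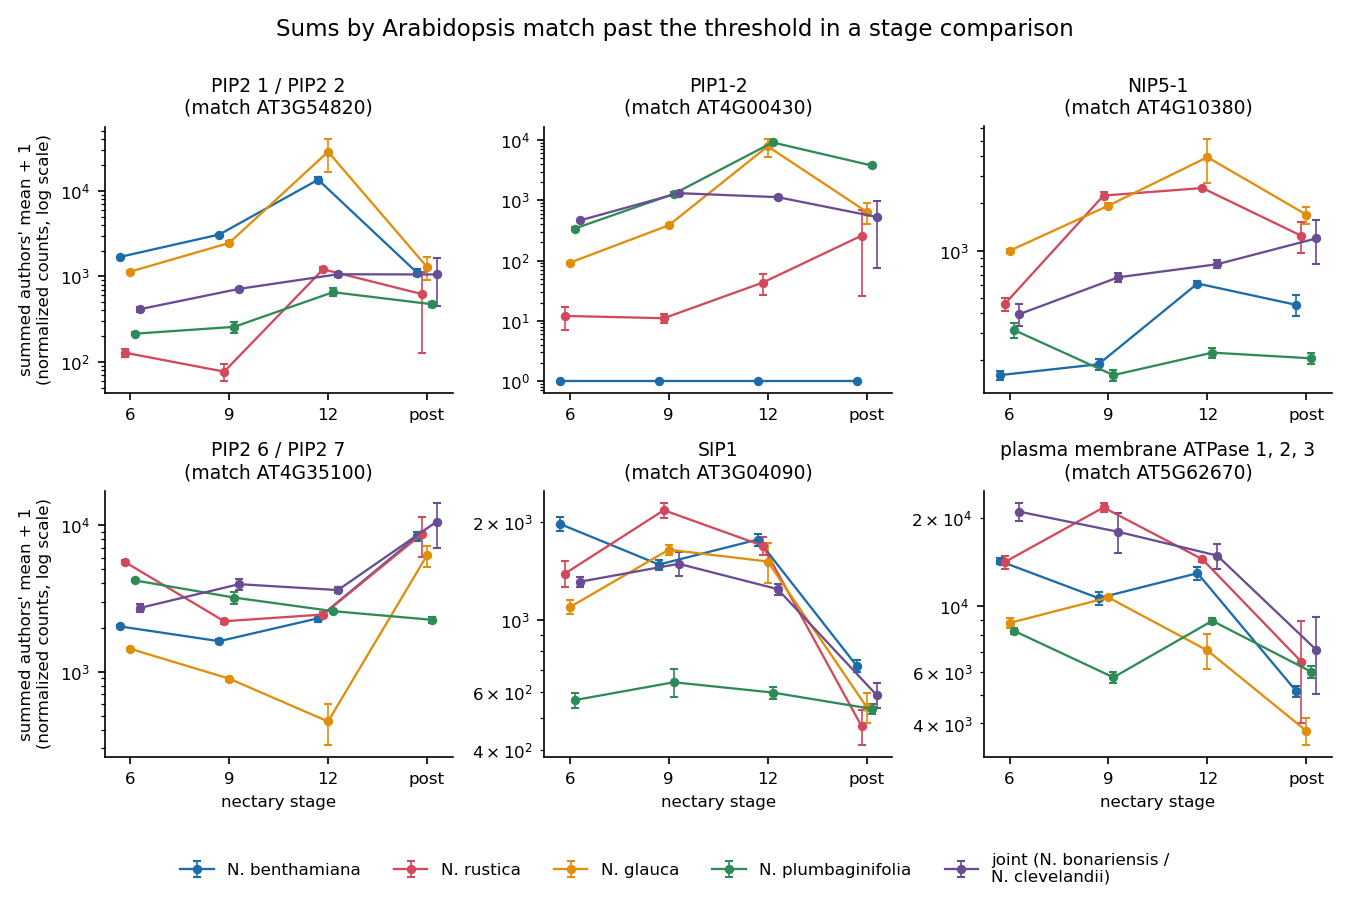
Summed authors' mean + 1 (y axis, normalized counts, log scale) over the nectary stages (x axis) for 6 groups of transcripts with 1 Arabidopsis match each, in 5 profiles; bars are the upper bound of the SD of the sum, and a lower bar that would pass 0 is shortened. PIP2 1 and PIP2 2 peak at stage 12 in N. benthamiana (13530) and N. glauca (28744), PIP2 6 and PIP2 7 are highest after secretion in 4 of 5 profiles, and SIP1 and the plasma membrane ATPases 1, 2 and 3 are lower after secretion than at stage 12 in each.

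After secretion some PIP2 sums rose and another fell. The PIP2 6 and PIP2 7 sum (AT4G35100, 5 transcripts) went from 2311 (SD at most 124) at stage 12 to 8397 (SD at most 578) in N. benthamiana, from 455 (SD at most 141) to 6227 (SD at most 1013) in N. glauca, from 2453 (SD at most 106) to 8728 (SD at most 2687) in N. rustica and from 3604 (SD at most 150) to 10595 (SD at most 3661) in the joint profile. N. plumbaginifolia was the exception, with 2587 (SD at most 93) and 2257 (SD at most 98). The rise was 1.76 (SE 0.44, limma adjusted p = 0.022, higher in 4 of 5). A second group of PIP2 transcripts (PIP2 3a, 4a, 4b, 5 and 10 and PIP2-2-like, AT3G53420) rose by 1.39 (SE 0.43, limma adjusted p = 0.048, higher in 5 of 5), from 1039 to 12786 in N. glauca but from 1777 to 1868 in N. plumbaginifolia. The PIP2 1 and PIP2 2 sum, which had risen before, fell by 1.91 (SE 0.59, limma adjusted p = 0.049), from 13530 to 1105 in N. benthamiana and from 28744 to 1289 in N. glauca. In the joint profile it stood at 1059 and 1053, and after rescaling it was lower in 4 of 5 profiles, with limma adjusted p = 0.0577.

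Among PIP1 transcripts, aquaporin 1 (AJ001416.1) had an estimate of 1.65 (SE 0.42, limma adjusted p = 0.086) from stage 12 to the post secretory stage. Its values were 1582 (SD 343) and 16066 (SD 1133) in N. glauca, 3749 (SD 173) and 7976 (SD 768) in N. benthamiana, 696 (SD 36) and 2664 (SD 278) in N. rustica, and 724 (SD 40) and 2731 (SD 402) in the joint profile. In N. plumbaginifolia it stood at 1918 (SD 85) and 1888 (SD 17). The authors' deposited table called it higher in those first 4 profiles.

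SIP1 and the plasma membrane ATPases 1, 2 and 3 were lower after secretion in each profile, while the sum of all plasma membrane ATPases was lower in 4 and stood at 8385 and 8394 in N. glauca. The SIP1 sum (AT3G04090, 5 transcripts) went from 1760 (SD at most 75) to 721 (SD at most 29) in N. benthamiana, 1507 (SD at most 211) to 539 (SD at most 57) in N. glauca, 1685 (SD at most 107) to 470 (SD at most 58) in N. rustica, 1240 (SD at most 49) to 587 (SD at most 51) in the joint profile and 597 (SD at most 25) to 532 (SD at most 18) in N. plumbaginifolia. It fell by 1.17 (SE 0.22, limma adjusted p = 0.0065). The sum of plasma membrane ATPases 1, 2 and 3 (AT5G62670, 6 transcripts) went from 12953 (SD at most 638) to 5141 (SD at most 226) in N. benthamiana, 7080 (SD at most 946) to 3775 (SD at most 395) in N. glauca, 14444 (SD at most 300) to 6481 (SD at most 2458) in N. rustica, 14860 (SD at most 1425) to 7118 (SD at most 2070) in the joint profile and 8924 (SD at most 226) to 5994 (SD at most 295) in N. plumbaginifolia. It fell by 1.01 (SE 0.23, limma adjusted p = 0.016, lower in 5 of 5). The most abundant of them, plasma membrane ATPase 2 (XM_016602228.1), had 8035 (SD 377) at stage 12 in N. benthamiana and 2644 (SD 113) after secretion. The plasma membrane ATPase 4 sum did not share this fall and stood at 1294 (SD at most 810) and 4596 (SD at most 1390) in N. glauca (estimate over profiles 0.37, SE 0.28, limma adjusted p = 0.40).

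Among the remaining members, 1 pump subunit and 1 vacuolar channel were also called. Subunit D of V1 (AT3G58730, 3 transcripts), part of the central stalk, fell by 0.66 (SE 0.19, limma adjusted p = 0.037, lower in 5 of 5), from 2899 to 968 in N. glauca and from 1171 to 1055 in N. plumbaginifolia. The RB7-type TIP (XM_016626436.1, AT4G17340), named for a root gene of tobacco, fell by 3.12 (SE 0.88, limma adjusted p = 0.034). Its means were 1223 (SD 44) and 105 (SD 12) in N. benthamiana, 180 (SD 16) and 0 (SD 0) in N. glauca, and 23 (SD 7) and 0 (SD 1) in N. rustica, and it was listed at 0 at both stages in the remaining profiles.

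From stage 12 to the post secretory stage, 0 of 140 transcripts were called in either direction by limma, where 0.232% of all transcripts were called higher and 0.554% lower, and 15 members higher and 17 lower had an unadjusted p under 0.05, beside 7.21% and 9.05% of all transcripts. Of 40 loci, 2 were called higher (5.0%) and 5 lower (12.5%), against 4.84% and 6.56% of all loci. In 5 of 5 profiles, 0 transcripts were higher and 4 lower (2.57% and 3.78% of all transcripts), and 1 locus was higher and 5 lower (8.68% and 12.8% of all loci). The authors' deposited table called 24 members higher and 31 lower of 86 measured in N. benthamiana, 14 and 37 of 84 in N. glauca, 17 and 10 of 80 in N. rustica, 12 and 6 of 100 in the joint profile, and 8 and 14 of 74 in N. plumbaginifolia. Its shares over all measured transcripts, again from the authors' deposited table and in that order, were 23.9%, 18.4%, 10.7%, 5.62% and 13.5% higher and 27.0%, 20.8%, 13.0%, 8.74% and 12.0% lower. Each of the 7 calls was lost without 1 or more single profiles. The SIP1 call was lost without N. glauca (adjusted p = 0.0552), and the RB7 call without N. benthamiana, N. rustica or N. glauca (up to 0.184). The other 5 kept only the fit without N. plumbaginifolia, with adjusted p up to 0.219 for AT3G53420, 0.255 for AT3G54820, 0.163 for AT3G58730, 0.141 for AT4G35100 and 0.0920 for AT5G62670. Without the 3 groups of widest spread (N. rustica and the joint profile after secretion, and N. glauca at stage 12) 0 loci were called in either direction. That fit has 9 residual degrees of freedom in place of 12, and the 7 estimates kept their direction. Over the same step the summed nectary markers were lower and the summed green tissue markers higher in every profile, and the 19 phloem and xylem markers were higher too, with 168 at stage 12 and 3932 after secretion in N. glauca. The sum of 22 pollen markers was also higher in every profile, from 8920 and 9933 in N. plumbaginifolia to 8947 and 24513 in N. rustica. That of 20 ovule markers was lower in every profile, with 10240 and 3051 in the joint profile. The ovule gene AGL11 alone rose in N. benthamiana (362 to 980), N. glauca (91 to 621) and N. plumbaginifolia (1464 to 1980). It fell in N. rustica (491 to 310) and the joint profile (2379 to 386). The part of all these markers in these results was not tested.

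For the single steps up to anthesis, 0 of 140 members and 0 of 40 loci were called from stage 6 to 9 or from stage 9 to 12. Over all features limma called 0% from stage 6 to 9, and 0% of transcripts and 0.0162% of loci higher and 0% lower from stage 9 to 12. At an unadjusted p under 0.05, 3 members were higher and 13 lower from stage 6 to 9 (4.36% and 3.80% of all transcripts), and 10 higher and 3 lower from stage 9 to 12 (3.38% and 1.47%). In 5 of 5 profiles, 2 transcripts were higher and 9 lower from stage 6 to 9 (3.26% and 2.65% of all transcripts), and 6 higher and 4 lower from stage 9 to 12 (2.52% and 1.39%). For loci these counts were 5 and 6 (8.69% and 9.78% of all loci), and 7 and 2 (6.93% and 4.57%). Within the profiles, the authors' deposited table called between 10.5% (N. glauca) and 43.8% (N. rustica) of the measured members lower from stage 6 to 9, and between 13.8% (N. rustica) and 31.6% (N. glauca) higher. The shares of all measured transcripts called lower by the authors' deposited table at that step were 16.6% in N. benthamiana, 17.3% in N. glauca, 20.3% in N. rustica, 19.8% in the joint profile and 20.7% in N. plumbaginifolia, and the higher shares were 16.2%, 18.5%, 20.5%, 18.3% and 18.3%. From stage 9 to 12 the authors' deposited table called 34 members higher and 7 lower of 80 measured in N. benthamiana, 15 and 15 of 79 in N. glauca, 19 and 10 of 78 in N. rustica, 8 and 8 of 99 in the joint profile, and 24 and 8 of 75 in N. plumbaginifolia. Over all measured transcripts the authors' deposited table then called 20.8%, 13.8%, 18.4%, 11.2% and 17.8% higher in that order, and 16.3%, 13.1%, 13.9%, 7.84% and 16.7% lower. In N. rustica all 8 measured PIP1 transcripts were called lower in the authors' deposited table from stage 6 to 9, and in the joint profile 9 of 11 PIP2 transcripts were called higher.

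Related transport genes gave 1 call. Of lists made by description (proton-coupled exchangers, potassium channels and carriers, anion channels, 14-3-3 proteins that activate the plasma membrane pump, mitochondrial ATP synthase and soluble pyrophosphatases), 45, 63, 27, 28, 28 and 14 transcripts were tested. A K(+) efflux antiporter 4-like transcript (XM_016643083.1), of a family that exchanges potassium for protons, rose by 1.21 from stage 12 to the post secretory stage (SE 0.20, limma adjusted p = 0.014, higher in 5 of 5). No other member of these lists passed the threshold at any of the 4 comparisons. The mitochondrial ATP synthase list had the lowest medians, -0.37 from stage 6 to 12 and -0.53 from stage 12 to the post secretory stage.

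Against leaf, ovary and sepal of N. plumbaginifolia, several PIP1 transcripts differed widely from the secreting nectary. PIP1-2 (XM_016602745.1) had an authors' mean of 9160 (SD 203) in the stage 12 nectary, 721 (SD 615) in leaf, 475 (SD 269) in ovary and 239 (SD 3) in sepal. The nectary exceeded each tissue by far more than its SD, with log2 differences of 3.67 against leaf (SE 0.56, limma adjusted p = 0.0025), 4.27 against ovary (SE 0.24, limma adjusted p = 8.7e-12) and 5.25 against sepal (SE 0.07). Another transcript described as PIP1-2 (XM_016630997.1) stood at 538 (SD 49) in the nectary and was listed at 0 in all 3 tissues. PIP1-5 (XM_016654729.1) was listed at 0 in the nectary and at 434 (SD 550) in leaf, 1338 (SD 120) in ovary and 270 (SD 7) in sepal. Copies can take each other's place, and no fold is given for these. Together with them, the other 11 PIP1 transcripts (AT4G23400) summed to 7108 in the nectary, 11328 (SD at most 7822) in leaf, 11593 (SD at most 1842) in ovary and 8303 (SD at most 265) in sepal, so the PIP1 family as a whole was at 16268 in the nectary and between 8542 and 12068 in the tissues. The PIP2 sums were closer, 5017 in the nectary and 4271 to 6449 in the tissues.

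NIP6-1 (AT1G80760, 3 transcripts), which distributes boron to young shoot tissue in Arabidopsis, stood at 958 (SD at most 107) in the nectary, 83 (SD at most 58) in leaf, 176 (SD at most 99) in ovary and 58 (SD at most 8) in sepal. It was higher in the nectary by 3.51 against leaf (SE 0.47, limma adjusted p = 0.0015), 2.44 against ovary (SE 0.24, limma adjusted p = 5.6e-08) and 4.02 against sepal (SE 0.13). NIP5-1 had another order, with 223 (SD at most 16) in the nectary, 618 (SD at most 666) in leaf, 10 (SD at most 1) in ovary and 1367 (SD at most 18) in sepal. Among vacuolar channels, TIP1-1 (AT2G36830) was at 347 (SD at most 70) in the nectary, 61 (SD at most 49) in leaf, 546 (SD at most 60) in ovary and 129 (SD at most 10) in sepal, so the nectary lay above leaf and sepal and below ovary. The RB7-type TIP was listed at 0 in all nectary stages of this species and at 25 (SD 22) in leaf, 186 (SD 13) in ovary and 78 (SD 3) in sepal.

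**Figure D5:**
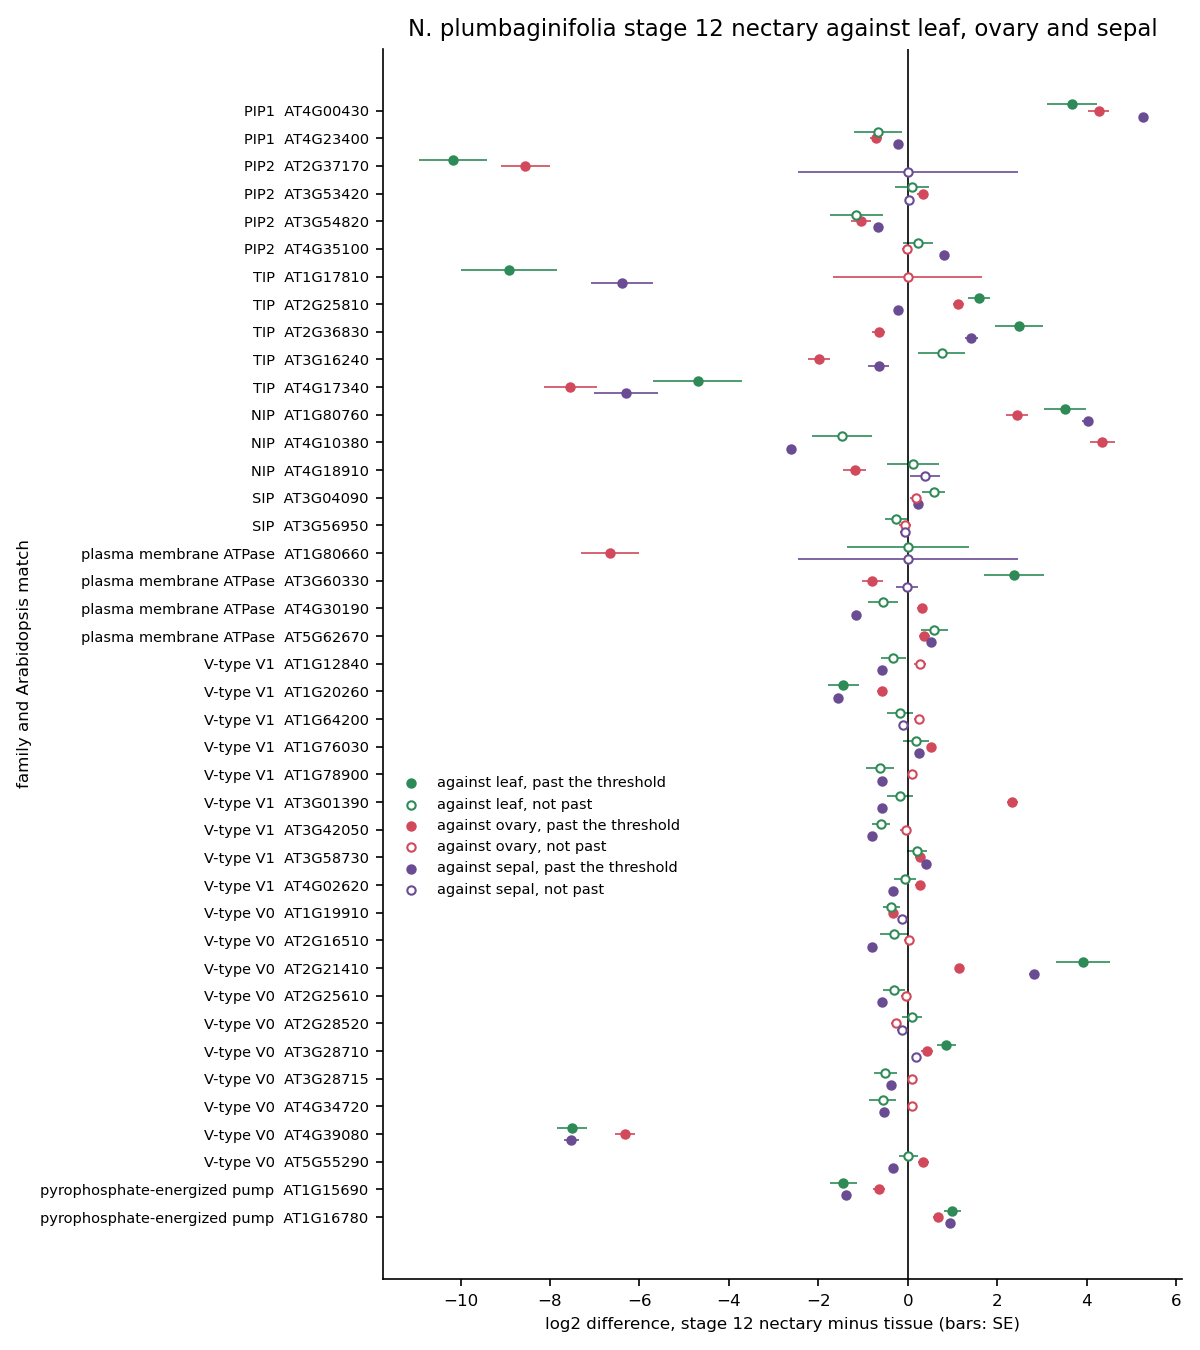
Log2 difference of the summed mean + 1 between the stage 12 nectary and leaf, ovary or sepal of N. plumbaginifolia (x axis, bars are the SE) for 41 Arabidopsis matches grouped by family (y axis); filled points passed the threshold. PIP1 AT4G00430 lies at 3.67 to 5.25 and NIP AT1G80760 at 2.44 to 4.02, while V-type V0 AT4G39080 lies at -6.32 or lower and its relative AT2G21410 above 0.

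Among the pumps, the pyrophosphate-energized vacuolar pump (AT1G15690, 6 transcripts) was lower in the nectary, at 1691 (SD at most 174), than in leaf with 4595 (SD at most 1519), ovary with 2640 (SD at most 558) and sepal with 4390 (SD at most 135). The differences were -1.44 against leaf (SE 0.30, limma adjusted p = 0.0086), -0.64 against ovary (SE 0.13, limma adjusted p = 0.00034) and -1.38 against sepal (SE 0.07). Pump 3 of the same family (XM_016622651.1, AT1G16780), whose Arabidopsis relative lies in the Golgi, was higher in the nectary, with 966 (SD 64) against 481 (SD 61), 601 (SD 13) and 501 (SD 5). The plasma membrane ATPases 1, 2 and 3 were at 8924 (SD at most 226) in the nectary, 5918 (SD at most 645) in leaf, 6921 (SD at most 282) in ovary and 6263 (SD at most 223) in sepal, a difference past the threshold against ovary (0.37, SE 0.12, limma adjusted p = 0.014) and sepal (0.51, SE 0.07) but not against leaf (0.59, SE 0.30, limma adjusted p = 0.17). Plasma membrane ATPase 4 was instead higher in sepal, with 6472 (SD at most 207) against 2897 (SD at most 24) in the nectary. The V1 sum was 10106 in the nectary, 12829 (SD at most 4475) in leaf, 8426 (SD at most 808) in ovary and 13299 (SD at most 500) in sepal.

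Some V-type transcripts differed widely between tissues while their subunit sums differed less. Subunit a of AT4G39080 stood at 11 (SD 2) in the nectary, 2186 (SD 740) in leaf, 961 (SD 41) in ovary and 2201 (SD 20) in sepal, while subunit a of AT2G21410 stood at 1330, 87, 597 and 188. All 11 transcripts of subunit a together summed to 1893 (SD at most 70) in the nectary, 2789 (SD at most 935) in leaf, 2217 (SD at most 119) in ovary and 2996 (SD at most 87) in sepal. In this species, 11 members were at 50 or more in each nectary stage and listed at 0 in another tissue, and 20 were listed at 0 in each nectary stage and at 50 or more in another tissue. The aquaporin PIP2 9, listed at 0 in the nectary and at 1145 (SD at most 575) in leaf and 374 (SD at most 107) in ovary, is of the latter kind, and no fold is given for it. The shares of all transcripts of either kind are not given, so the counts of 11 and 20 do not set the members apart.

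By locus, 8 of 41 were called higher in the nectary than in leaf (19.5%) and 6 lower (14.6%), against 13.2% and 21.0% of all loci. Against ovary the counts were 15 higher (36.6%) and 13 lower (31.7%), against 20.1% and 43.7%, and against sepal 10 higher (24.4%) and 21 lower (51.2%), against 34.3% and 43.8%. Rescaling by the median of ratios over transcripts shifted the differences by 0.05 (leaf), 0.23 (ovary) and 0.16 (sepal) toward the nectary. With factors computed on the locus sums instead, the ovary counts of loci became 21 higher and 12 lower. The shares of all loci under these factors are not given, so 20.1% and 43.7% cannot be set beside these counts. Loci higher in the nectary than in all 3 tissues numbered 4 (AT1G16780, AT1G80760, AT2G21410 and AT4G00430), where 8.41% of all loci were, and loci lower than in all 3 numbered 4 (AT1G15690, AT1G20260, AT4G17340 and AT4G39080), where 14.1% were. Of these, AT2G21410 and AT4G39080 are the subunit a loci described above, whose copies can take each other's place. AT4G17340 was listed at 0 in each nectary stage of this species. At 2-fold or more, 7 and 6 loci were higher and lower than in leaf (10.5% and 18.9% of all loci), 6 and 7 than in ovary (8.64% and 18.2%), and 4 and 7 than in sepal (13.6% and 23.9%). By transcript, 29 of 105 were higher and 36 lower than in leaf (26.6% and 29.1% of all transcripts), 37 and 38 than in ovary (29.9% and 42.0%), and 37 and 53 than in sepal (37.7% and 42.2%), of which 24 and 32 at 2-fold or more (26.1% and 32.1%). The leaf libraries spread widely, with a median SD over mean of 0.356 among members at 100 or more, against 0.0588 in the stage 12 nectary. Adjusted p-values against sepal were too small to interpret with 3 libraries a group and are not printed. Those printed against leaf and ovary rest on the same kind of spread, that between 3 libraries of a group. This spread may be technical, so these p-values may not cover the spread between plants.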

How the data were processed

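RNA libraries of nectaries and of 3 other tissues, 81 in 27 groups of 3 by the sample titles, were sequenced as 50 bp paired reads, per the labels' protocols. Where the titles list sepal the protocol has stems, with a smaller number of libraries, and the titles were followed. The deposited table gives the authors' group means and SDs as whole numbers (unit score), normalized counts per the file headers, with DESeq named in the submitters' processing notes. The sources used here give neither its version nor the aligner. The authors' deposited calls (unit other) are yes or no per pair of groups, by an unknown threshold. Values and totals per library were not used here, so the depth is unknown. Sums of the authors' means run from 7824385 to 15248393 per group.

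The stage effect was fitted to the 36627 transcripts whose 20 nectary means average 10 or more. Under R 4.3.3, the test was limma 3.58.1 with eBayes and a trend, on log2(mean + 1), blocked by profile. P-values were adjusted by Benjamini-Hochberg over all these transcripts, with a threshold of 0.05. The 5 profiles are the replicates, 12 residual degrees of freedom remain, and the authors' SDs do not enter. Fits without 1 profile keep 9. Tissues were compared with limma's squeezeVar from the authors' means and SDs, with an SD not below the square root of mean + 1. Both tests were tested on simulated data. Sums by Arabidopsis match were added after seeing the data, and so was the choice of loci that are named. Members of a match were summed apart from its other transcripts.

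Transcripts are named by a rule. In each family these are the 2 with the highest mean over the nectary means, up to 5 past the threshold in each stage comparison, and the 2 highest and 2 lowest in the stage 12 nectary against the other tissues among those past that threshold. Part of these is printed. Members and lists were chosen with earlier results of these data known. Sequences of the members were not used here.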

Additional observations from a re-analysis of the deposited data

Results flagged for a closer look

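The summed level of the pyrophosphate-energized pumps was higher at stage 12 than at stage 9 by 0.73 on the log2 scale in N. glauca, with 10696 (SD at most 2341) against 6442 (SD at most 107), while the other 4 profiles lay between 0.11 and 0.23. This profile stood far from the others for the size of the whole range (its gap to the nearest was 0.806 of the range, above Dixon's 95% critical value). It was the only such value among 50 tested, and chance alone flags about 1 in 20.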

How the results depend on the processing

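No paired analysis was possible because the table holds group means without replicate numbers. Counts of calls that moved by more than 1.5 times are given with the reported count in parentheses, and the cause was not tested. Of the settings, the sums by description and by Arabidopsis match and the fits without groups of wide spread or high in AGL11 were chosen after seeing the data. The setting with both equal copies enters the same values again as if from a separate profile, with 15 residual degrees of freedom in place of 12. Its larger counts are therefore no added evidence.

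From stage 6 to 12, transcripts higher (0) were 1 at a mean of at least 50, 9 with both equal copies counted, 4 summed by description and 5 by match, and transcripts lower (2) were 7 with both copies, 0 without the AGL11 groups and 1 without the wide groups. Loci higher (5) were 8 with both copies, 2 without the AGL11 groups and 3 without the wide groups, and loci lower (2) were 8 and 1 for the first pair of settings. From stage 6 to 9, loci lower (0) were 3 with both copies.

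From stage 12 to the post secretory stage, transcripts higher (0) were 7 with both copies, 3 without the AGL11 groups, and 2 by description or by match, and transcripts lower (0) were 3, 1, 2 and 5 in that order. Loci higher (2) were 1 without a filter, 1 without the AGL11 groups and 0 without the wide groups, and loci lower (5) were 3 after rescaling and 0 without the wide groups.

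Leaving out each profile gave 0 to 2 transcripts higher and 0 to 2 lower after secretion, and 0 to 1 lower at stage 12 against stage 6. For loci it gave 0 to 2 higher and 0 to 6 lower after secretion, and 1 to 5 higher and 0 to 2 lower at stage 12 against stage 6.

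Against leaf, transcripts higher (29) were 16 and lower (36) 23 in the authors' deposited table, and 8 and 6 summed by match. Loci lower than in leaf (6) were 14 with a variance pooled over groups. Summed by match, the counts were 15 higher (37) and 13 lower (38) against ovary, and 10 higher (37) and 21 lower (53) against sepal. At 2-fold or more, transcripts against sepal were 24 higher and 32 lower, loci against ovary 6 higher (15) and 7 lower (13), and loci against sepal 4 higher (10) and 7 lower (21). The estimate of subunit G XM_016628038.1 from stage 12 to the post secretory stage was -0.10 (limma adjusted p = 0.702) and 0.04 without the wide groups (limma adjusted p = 0.948). Depth per library is unknown, so the smallest difference that could be seen is not given.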
